A study of Mus musculus with 14 samples.

Results

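Transcripts of 7 antioxidant genes were followed in whole mouse hearts with and without p62 in cardiac muscle. They are the superoxide dismutases Sod1, Sod2 and Sod3, the metallothioneins Mt1 and Mt2, and the methionine sulfoxide reductases Msra and Msrb2. They were picked out by gene symbol and are 7 of the 55487 gene identifiers of the count table. The hearts came from untreated male C57BL/6 mice: 3 wild types and 3 knockouts aged 2 months, and 4 wild types and 4 knockouts aged 15 months. The knockout carries the genotype Myh6-Cre-Sqstm1fl/fl, in which Cre recombinase is made under the promoter of a cardiac muscle myosin and removes the loxP-flanked Sqstm1 gene, which encodes p62. Heart cells in which Myh6 is silent therefore keep the gene, and counts were taken over the whole gene. The labels name the controls wild type and do not say whether they carry Cre or the loxP sites. Nor do they state whether each heart was processed on its own, so every p refers to variation among these libraries, which may be technical. The title of the series names Nrf2 protein and oxidative stress, and each age was compared between genotypes, and each genotype between ages.

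Superoxide dismutases convert superoxide to hydrogen peroxide and oxygen, each in its own compartment: Sod1, with copper and zinc, mainly in the cytosol, Sod2, with manganese, in the mitochondrial matrix, and Sod3, with copper and zinc, outside the cell, where it binds heparan sulfate of the matrix and vessel walls. Mt1 and Mt2 are small cysteine-rich proteins that bind zinc and copper, and their transcription is known to respond to zinc through the factor Mtf1 and to glucocorticoids. Msra and Msrb2 return oxidised methionine to methionine and act on opposite stereoisomers of the sulfoxide, with Msrb2 in mitochondria.

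Positions are those of GENCODE M21 on GRCm38. Sod1 (ENSMUSG00000022982) lies on chromosome 16 from 90220754 to 90226329 on the plus strand, Sod2 (ENSMUSG00000006818) on chromosome 17 from 13006846 to 13040063 (plus), and Sod3 (ENSMUSG00000072941) on chromosome 5 from 52363791 to 52371418 (plus). Mt2 (ENSMUSG00000031762) and Mt1 (ENSMUSG00000031765) are neighbours on the plus strand of chromosome 8, from 94172664 to 94173568 and from 94179082 to 94180327. Msra (ENSMUSG00000054733) lies on chromosome 14 from 64122625 to 64455903 (minus) and Msrb2 (ENSMUSG00000023094) on chromosome 2 from 19371440 to 19394976 (plus). The strand setting of the authors' counting is not given in the sources used here, so reads of genes that overlap on opposite strands may not have been told apart. Sod1 overlaps Scaf4, which reached 27.6 CPM (counts scaled to a common library total), and Mt2 overlaps the antisense gene Gm45774, which reached 0.207 CPM. Reads of some members could also belong to other genes: 23.1% of the 50-base windows of the Sod1 transcript occur in the processed pseudogene Gm8566, and 45.5% of those of Mt2 occur, on the opposite strand, in Gm45774. None of the 500 windows of the principal Mt1 transcript, of 549 bases, occur in another gene, Mt2 included, and the rest of its exons was not searched.

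Windows upstream of Mt1 and Mt2 are shown because these members varied together over the libraries. Each sequence is the 250 bases before the RefSeq start on GRCm38.p6, plus strand, with capitals for matches to the core of the metal response element, the site of Mtf1, searched on both strands as TGCACNC or TGCGCNC. The Mt1 window held 1 match and the Mt2 window 3, of which 1 is on the minus strand. The windows end at 94179088 for Mt1 and 94172617 for Mt2, beside GENCODE starts of 94179082 and 94172664. Bases after these ends were not searched, so the counts describe the windows and not the whole promoters. A match is a description of letters and not a measured site.
Mt1, chr8:94178839-94179088: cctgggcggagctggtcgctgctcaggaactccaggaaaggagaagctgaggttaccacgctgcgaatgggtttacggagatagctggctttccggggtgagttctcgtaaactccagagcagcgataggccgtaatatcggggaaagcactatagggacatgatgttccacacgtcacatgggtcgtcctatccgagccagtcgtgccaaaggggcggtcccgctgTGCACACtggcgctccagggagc
Mt2, chr8:94172368-94172617: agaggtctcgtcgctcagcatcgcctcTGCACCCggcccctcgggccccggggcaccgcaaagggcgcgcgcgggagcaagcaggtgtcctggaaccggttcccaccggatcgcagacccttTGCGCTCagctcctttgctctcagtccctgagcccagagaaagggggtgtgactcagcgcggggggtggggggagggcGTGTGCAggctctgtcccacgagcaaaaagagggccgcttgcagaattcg

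Of 32851 mouse gene windows of this length, 21.4% held at least 1 such match and 5.17% at least 2. The antioxidant response element, the site of Nrf2, was searched as TGACNNNGC on both strands. It occurred once in the windows of Mt2 and Sod1 and in 10.2% of all windows, and was not found in those of Mt1, Sod2 and Msrb2.

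Total counts ranged from 20218992 to 30404416 per library, with 27.5% to 46.0% on mitochondrially encoded genes. Sqstm1, the targeted gene, was at 162 ± 20.03 CPM in wild type and 16.4 ± 2.49 in knockout at 2 months (SD, n = 3 each), and at 201 ± 28.3 and 21.3 ± 10.5 CPM at 15 months (SD, n = 4 each). Cardiac muscle markers summed to 35945 to 45878 CPM and hepatocyte markers to at most 0.488 CPM. Several libraries stood apart. Atrial transcripts were highest in wild-type replicate 1 at 2 months (Myl7 at 638 CPM), which also had the highest sum of fibroblast markers, 1287 CPM. At 15 months Myl7 was at 58.1 CPM in knockout replicate 1 and at 39.7, 15.0 and 26.9 CPM in wild-type replicates 1, 2 and 4. In every remaining library of either age it was at most 0.482 CPM. Both replicates numbered 3 at 2 months had Ciart, a clock gene, at 20.2 and 16.3 CPM, against 0.657 to 1.20 in the other 2-month libraries. Libraries also differed in length slope, found by regressing each gene's log2 CPM in a library, less its average in all 14, on log2 exon length. It was below 0 in all 6 libraries at 2 months and in 2 of 8 at 15 months, wild-type replicate 2 (−0.0744) and knockout replicate 1 (−0.0916), and reached 0.235 in knockout replicate 3 at 15 months. The mitochondrial share peaked in the same knockout replicate 1, at 46.0%.

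All 7 members were counted in every library and passed the filter on low counts. Mt2 had the fewest reads, 62 to 1133 per library, and Sod2 the most, 7905 to 17902. Per kilobase of exon, the level (RPKM) in wild-type hearts at 2 months was 63.03 ± 32.4 for Mt1, 50.2 ± 3.34 for Sod2 and 43.7 ± 5.67 for Sod1 (SD, n = 3). It was 32.6 ± 4.92 for Msrb2, 16.5 ± 10.99 for Mt2, 6.47 ± 0.508 for Msra and 3.92 ± 2.32 for Sod3 (SD, n = 3). The libraries of Mt1 overlapped those of Sod2 and Sod1 in this order, so these neighbours did not differ beyond their spread, and the same held for Msra and Sod3. The order of the leading members depends on the length used: over the principal transcript alone, a length chosen after the data were seen, Sod1 came first at 271, above Mt1 at 143 and Sod2 at 85.8. With exons, the order was the same in knockout hearts at 2 months, Sod2 stood before Mt1 in wild type at 15 months, and Mt2 before Msrb2 and Sod3 before Msra in knockout at 15 months.

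The members differed widely in how much they varied between hearts. Msra was the steadiest, with a highest library 1.2-fold above the lowest and a residual SD around the group means of 0.08 on the log2 scale, at the 0.264 percentile of the 15528 genes tested. Sod2 (1.34-fold, residual SD 0.11) and Sod1 (1.62-fold, 0.16) were also steady, at the 2.47 and 12.5 percentiles. Msrb2 lay near the middle (2.4-fold, 0.28, percentile 44.2). Sod3 (5.41-fold, 0.54) and Mt1 (2.7-fold, 0.60) varied more, and Mt2 most, 11.3-fold with a residual SD of 1.31, at the 99.4 percentile.

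**Figure D1:**
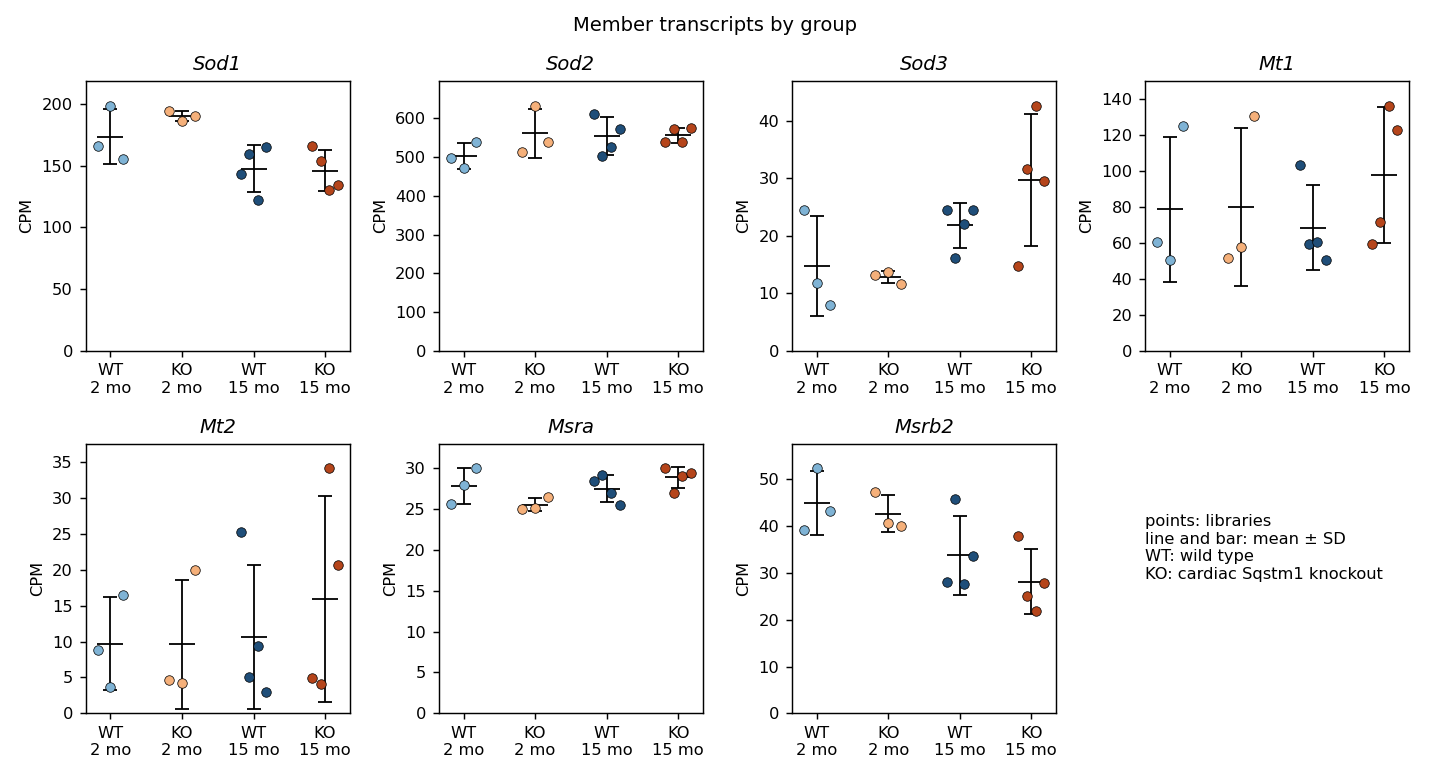
Level in CPM of each member in each library (points), by genotype (WT, wild type; KO, cardiac Sqstm1 knockout) and age in months, with the mean and SD of 3 or 4 libraries. The genotypes overlap at both ages for all 7 members, and in knockout hearts Sod1 and Msrb2 lie lower, and Sod3 and Msra higher, in all 4 libraries at 15 months than in the 3 at 2 months.

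Between genotypes at 2 months, 0 of 7 members passed the edgeR quasi-likelihood test at a Benjamini-Hochberg adjusted p of 0.05. Of the genes tested 0.00644% passed, which is 1 gene, the targeted Sqstm1. None passed an unadjusted p of 0.05 either, against 494 of 15528 genes, and DESeq2 and limma voom also called 0 members. The lowest edgeR adjusted p of the 7 was 0.9997. Sod1 was at 166, 199 and 156 CPM in wild-type hearts and 195, 187 and 190.2 in knockout. Sod2 was at 498, 472 and 538 CPM in wild-type hearts and 512, 633 and 539 in knockout. Both genes lay somewhat higher on average in knockout, with log2 fold changes of 0.13 (SE 0.15, 95% interval −0.19 to 0.46) and 0.16 (SE 0.14, 95% interval −0.13 to 0.45), and their groups overlapped. Whole hearts were measured, so fewer cells of a type and less RNA per cell cannot be told apart for any member.

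Sod3, the extracellular enzyme, was at 24.4, 11.7 and 7.88 CPM in wild-type hearts and 13.2, 13.7 and 11.6 in knockout at 2 months. Its highest and lowest values are both wild type, with the highest in replicate 1, the library with the most atrial transcripts. The log2 fold change was −0.20 (SE 0.37, 95% interval −1.0 to 0.60), and 0.40 without that library. Msra was at 25.6, 27.9 and 29.95 CPM in wild-type hearts and 25.01, 25.1 and 26.4 in knockout, a log2 fold change of −0.12 (SE 0.11, 95% interval −0.36 to 0.11). Msrb2 was at 39.05, 52.3 and 43.2 CPM in wild-type hearts and 47.2, 40.6 and 39.99 in knockout, a log2 fold change of −0.07 (SE 0.22, 95% interval −0.54 to 0.39). The groups of both reductases overlapped, and the direction of Msrb2 turned to 0.05 without wild-type replicate 2.

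The metallothioneins at 2 months split by replicate number and not by genotype. Mt1 was at 60.6, 50.3 and 125 CPM in wild-type hearts and 51.6, 57.3 and 131 in knockout. Mt2 was at 8.8, 3.7 and 16.5 CPM in wild-type hearts and 4.6, 4.3 and 19.9 in knockout. In each genotype the high library was replicate 3, the pair with high Ciart. The log2 fold changes were 0.02 (SE 0.43, 95% interval −0.89 to 0.94) for Mt1 and −0.02 (SE 0.93, 95% interval −2.03 to 1.99) for Mt2, intervals that leave room for large differences in either direction. Single libraries set their direction: without wild-type replicate 3 they were 0.54 and 0.63, without knockout replicate 3 −0.53 and −1.13, and without both −0.02 and −0.50.

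At 15 months 0 of 7 members passed between genotypes, again beside Sqstm1 as the 1 gene of all tested (0.00644%). No member passed an unadjusted p of 0.05, against 616 genes. The lowest edgeR adjusted p of the 7 was 0.999, and DESeq2 and limma voom called 0 members. Sod1 was at 143, 159, 165 and 123 CPM in wild-type hearts and 166, 154, 130.3 and 134 in knockout. Sod2 was at 613, 504, 574 and 527 CPM in wild-type hearts and 539.6, 572, 539 and 575 in knockout. Their log2 fold changes were −0.02 (SE 0.13, 95% interval −0.30 to 0.27) and 0.01 (SE 0.12, 95% interval −0.25 to 0.26), and their groups overlapped. Msra was at 28.4, 29.1, 25.5 and 26.9 CPM in wild-type hearts and 29.9, 26.98, 29.05 and 29.4 in knockout, with 0.07 (SE 0.09, 95% interval −0.13 to 0.27), the narrowest interval of the 7. Msrb2 was at 28.1, 45.7, 33.5 and 27.6 CPM in wild-type hearts and 37.9, 25.0, 21.8 and 27.7 in knockout, with −0.27 (SE 0.19, 95% interval −0.67 to 0.14). The highest Msrb2 values of each genotype were in its library of lowest length slope, wild-type replicate 2 and knockout replicate 1, and its log2 fold change was −0.08 without the first and −0.44 without the second.

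Sod3 at 15 months was at 24.5, 16.2, 24.4 and 22.0 CPM in wild-type hearts and 14.7, 31.6, 42.6 and 29.5 in knockout. Knockout replicate 1 had the lowest value and the other knockout libraries the 3 highest, and the log2 fold change was 0.45 (SE 0.32, 95% interval −0.23 to 1.12). The summed CPM of endothelial markers was 548, 362, 603 and 571 in wild type and 354, 801, 1177 and 726 in knockout, with the same knockout library lowest and the same 3 highest. Fibroblast markers summed to 428, 323, 695 and 729.6 CPM in wild type and 553, 878, 998 and 689.5 in knockout. Of the 7 endothelial markers, Egfl7 went the other way in knockout, at 39.6, 19.0, 27.4 and 29.8 CPM. The length slope of these knockout libraries was −0.0916, 0.164, 0.235 and 0.0904, the same order as their endothelial sums. All 7 endothelial and all 8 fibroblast markers were detected in every library. The part of the markers or of the slope in the level of Sod3 at this age was not tested. Without knockout replicate 3 the log2 fold change of Sod3 was 0.22, and without knockout replicate 1 it was 0.67.

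Mt1 at 15 months was at 103, 59.5, 50.6 and 60.2 CPM in wild-type hearts and 59.2, 71.7, 136 and 123 in knockout. Mt2 was at 25.2, 5.09, 3.02 and 9.36 CPM in wild-type hearts and 4.91, 4.14, 34.1 and 20.7 in knockout. The high libraries were wild-type replicate 1 and knockout replicates 3 and 4, so both genotypes held high and low hearts. Log2 fold changes were 0.51 (SE 0.37, 95% interval −0.28 to 1.30) for Mt1 and 0.59 (SE 0.80, 95% interval −1.13 to 2.31) for Mt2. Without knockout replicate 3 these were 0.31 and −0.11, and without wild-type replicate 1 they were 0.78 and 1.46. Exact two-sided permutation tests on the mean log2 CPM gave p = 0.2 or higher for all 7 members at both ages, where 3 against 3 libraries cannot go below 0.1 and 4 against 4 cannot go below 0.0286. The members without overlap between genotypes were 0 of 7 at either age, against 8.15% of all genes at 2 months and 1.99% at 15 months.

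Averaged over both ages, 0 of 7 members passed between genotypes (0.00644% of all genes, again Sqstm1), with log2 fold changes from −0.17 for Msrb2 to 0.28 for Mt2. The test of a difference between the genotype effects at the 2 ages called 0 members and 0% of all genes, with 577 genes of 15528 at an unadjusted p below 0.05 and none of the members among them. Nor did DESeq2 or limma voom call a member in the averaged contrast or in this one. In the averaged contrast 0 members had an unadjusted edgeR p below 0.05, against 506 genes. In that test of the difference the log2 value was 0.64 (SE 0.49) for Sod3, 0.49 for Mt1, 0.60 for Mt2 and between −0.19 and 0.19 for the other 4. For Sod3 it rested on wild-type libraries at 2 months, with 0.05 without replicate 1 and 0.94 without replicate 3. The median over the members was −0.02 at 2 months and 0.07 at 15 months, beside −0.00148 and 0.01 over all genes.

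**Figure D2:**
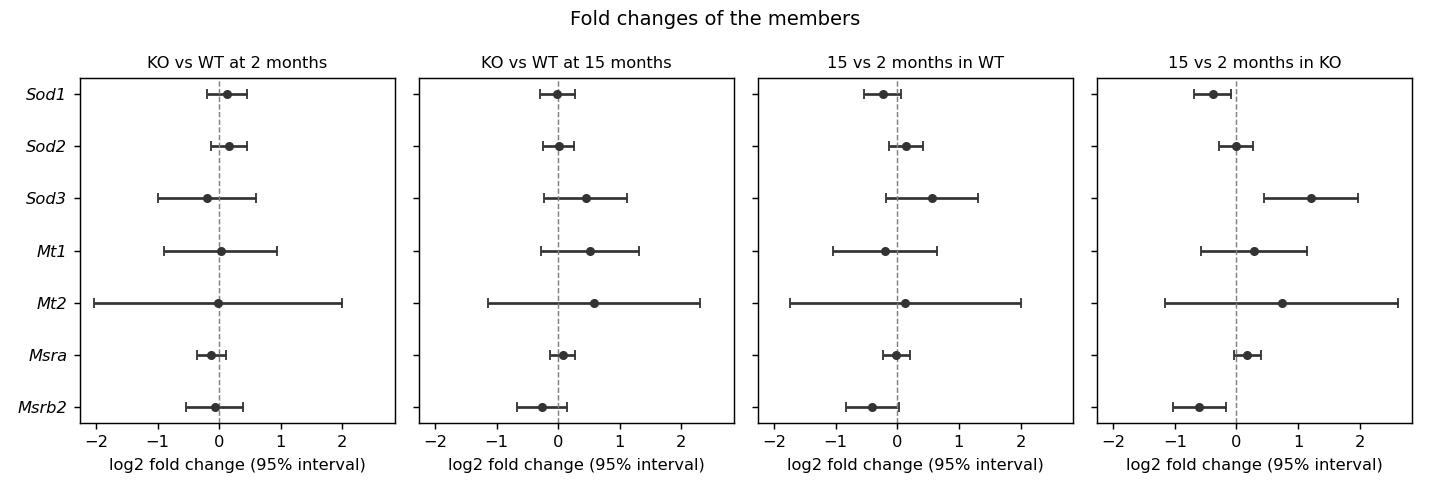
Log2 fold change (points) and 95% interval (bars) of each member from the edgeR fit, for knockout against wild type at each age and for 15 against 2 months in each genotype; the dashed line marks no change. All intervals between genotypes cross 0, Mt2 has the widest, and in knockout hearts the intervals of Sod1, Sod3 and Msrb2 with age do not cross 0, although none passed after adjustment over all genes.

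With age, 0 of 7 members passed in wild-type hearts, where 1.04% of all genes did (161 genes). None had an unadjusted edgeR p below 0.05, against 23.8% of all genes (3694 genes). DESeq2 and limma voom called 0 members too, and limma voom gave 1 member an unadjusted p below 0.05. Msrb2 came nearest, with a log2 fold change of −0.41 (SE 0.20, 95% interval −0.84 to 0.02) and an edgeR adjusted p of 0.23, followed by Sod1 at −0.23 (SE 0.14, 95% interval −0.54 to 0.07) and Sod3 at 0.57 (SE 0.35, 95% interval −0.18 to 1.32). Msrb2 passed in 1 other setting, which left out both 15-month libraries of lowest length slope (−0.59, adjusted p = 0.0172), where 16.9% of all genes passed. Sod2 gave 0.14, Mt1 −0.20, Mt2 0.13 and Msra −0.02. The groups overlapped for all 7 members, while 16.2% of all genes had no overlap between the ages. Without wild-type replicate 1 at 2 months, whose Sod3 was at 24.4 CPM, Sod3 gave 1.17, and without replicate 3 at 2 months it gave 0.29.

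In knockout hearts 0 of 7 members passed with age, where 2.25% of all genes did (349 genes), and 3 members had an unadjusted p below 0.05, as did 26.7% of all genes. Sod3 was higher at 15 months, 29.6 ± 11.5 against 12.8 ± 1.1 CPM (SD, n = 4 and 3), a log2 fold change of 1.21 (SE 0.36, 95% interval 0.45 to 1.97) with an edgeR adjusted p of 0.076. Msrb2 was lower, 28.1 ± 6.95 against 42.6 ± 3.99 CPM (SD, n = 4 and 3), a log2 fold change of −0.60 (SE 0.20, 95% interval −1.03 to −0.17) with an edgeR adjusted p of 0.0966. Sod1 was lower, 146 ± 16.8 against 190.4 ± 3.98 CPM (SD, n = 4 and 3), a log2 fold change of −0.38 (SE 0.14, 95% interval −0.68 to −0.08) with an edgeR adjusted p of 0.114. Each of these had the same direction in wild-type hearts, and the test of the difference between the genotypes, given earlier, called none of them. Sod1, Sod3, Msrb2 and Msra (28.8 ± 1.29 against 25.5 ± 0.774 CPM) had no overlap between the ages, 4 of 7 members, beside 20.1% of all genes. The exact two-sided permutation p was 0.0571 for each of the 4, and 3 against 4 libraries cannot go below 0.0286. The other 3 gave −0.01 for Sod2, 0.29 for Mt1 and 0.73 for Mt2, and without single libraries Mt1 ranged from 0.05 to 0.84 and Mt2 from 0.04 to 1.85.

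The calls with age in knockout hearts turned on 1 library, which also held atrial transcripts (Myl7 at 58.1 CPM), whose part was not tested. Without knockout replicate 1 at 15 months, 3 of 7 members passed: Sod3 at 1.43 (edgeR adjusted p = 0.0108), Msrb2 at −0.78 (adjusted p = 0.0128) and Sod1 at −0.45 (adjusted p = 0.0417). In the same fit 3523 genes passed, 22.6% of all tested, in place of 349, and leaving out any other library of the comparison left 49 to 116 genes and no member. The same 3 members passed without both 15-month libraries of lowest length slope, where 27.3% of all genes passed, and DESeq2 called Sod3 alone (1.22, adjusted p = 0.0164), where 10.3% of all genes passed. Over the libraries Sod3 ran with the length slope, and Msrb2 and Sod1 ran against it. Sod3 was highest, and Sod1 and Msrb2 low, in the 15-month knockout library of highest slope. The exon lengths, on which the slope was computed, were 3738 bases for Sod3, 3970 for Sod1 and 1377 for Msrb2. On that scale Sod1 is the longest of the 3. The principal transcripts have 3738, 641 and 1196 bases, and on that scale Sod1 is the shortest. The part of transcript length in these patterns was not tested. With the length slope as a covariate, chosen after the data were seen, the age effect in knockout hearts was 0.23 for Sod3, −0.12 for Msrb2 and −0.23 for Sod1, and 86 genes passed, none of them a member. At 15 months the slope was above 0 in 6 of 8 libraries and at 2 months in 0 of 6, so that age and slope are largely confounded and their parts cannot be told apart.

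**Figure D3:**
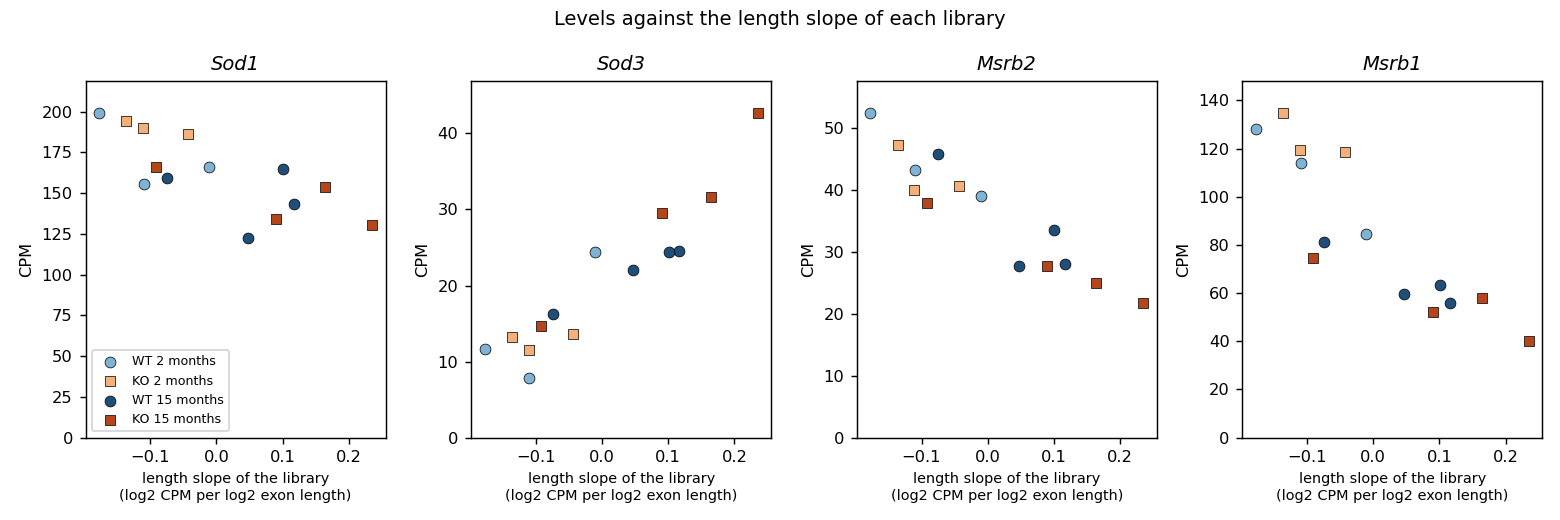
Level in CPM of Sod1, Sod3, Msrb2 and the related reductase gene Msrb1 in each library against the length slope of that library, coloured by genotype and age. Sod3 is highest, at 42.6 CPM, in the library with the highest slope, where Msrb2 (21.8 CPM) and Msrb1 (39.97 CPM) are lowest, and at similar slopes below 0 Msrb1 is lower in 15-month than in 2-month libraries.

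The metallothioneins varied together over the 14 libraries. Pearson's r of log2 CPM between Mt1 and Mt2 was 0.915 (permutation p = 0.00012) and Spearman's rho 0.855 (permutation p = 0.00016), both two-sided. The correlation remained without the 2 libraries farthest from the median of Mt1 (r = 0.877, rho = 0.804) and within the groups, on residuals from the 4 group means (r = 0.926). Mt1 was at 103 to 136 CPM in 5 libraries, replicate 3 of both genotypes at 2 months, wild-type replicate 1 and knockout replicates 3 and 4 at 15 months, and at 50.3 to 71.7 CPM in the other 9. The same 5 libraries had the highest Mt2, 16.5 to 34.1 CPM against 3.02 to 9.36. All 4 groups held at least 1 of these libraries, so genotype and age did not separate high from low. The ratio of Mt1 to Mt2 CPM was 17.3 in knockout replicate 2 at 15 months, where Mt2 was at 4.14 CPM, and 3.99 in knockout replicate 3, where both were highest, so Mt2 differed by more than Mt1 between these hearts.

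Some other genes named by likeness or from the lists ran with the metallothioneins, and others did not. Slc39a14, which brings zinc, manganese and iron into cells, was at 52.0 to 66.4 CPM in the same 5 libraries and 31.9 to 50.9 in the other 9. Fkbp5 and Klf9, which glucocorticoids are known to induce, were also highest in these 5, at 9.80 to 31.5 CPM against 4.66 to 9.73 for Fkbp5, and at 141 to 173 CPM against 96.7 to 136 for Klf9. Most other genes of the glucocorticoid list given below did not separate the 5 libraries from the other 9. Among these were Tsc22d3, Ddit4, Per1, Sgk1, Zbtb16, Cdkn1a, Pdk4, Dusp1, Hif3a, Errfi1, Angptl4, Cebpd and Nr3c1. Tsc22d3 was at 50.27 to 130.12 CPM against 52.08 to 96.82, and Ddit4 at 9.93 to 46.03 CPM against 9.69 to 41.79. In the 5 libraries Tsc22d3 and Ddit4 were high at 2 months and low at 15 months. Per1 was at 35.3 to 66.5 CPM in the 5 libraries against 16.3 to 80.0 in the others. Lcn2, an acute phase gene, shared 4 of its 5 highest libraries with Mt1, and the zinc exporter Slc30a1 shared 3. Mtf1, the factor that binds metal response elements, shared 2, with 15.4 to 22.6 CPM in the 5 libraries and 15.4 to 22.8 in the others. The clock gene Ciart shared 3 and did not follow the metallothioneins at 15 months, where it was between 7.07 and 13.6 CPM in all libraries. Slc39a14, Fkbp5 and Klf9 were set beside Mt1 after their values were seen, and these overlaps are descriptions without a test. The share of all genes with the same 5 highest libraries is not given here. The labels give no time of day, fasting state or handling for the hearts.

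**Figure D4:**
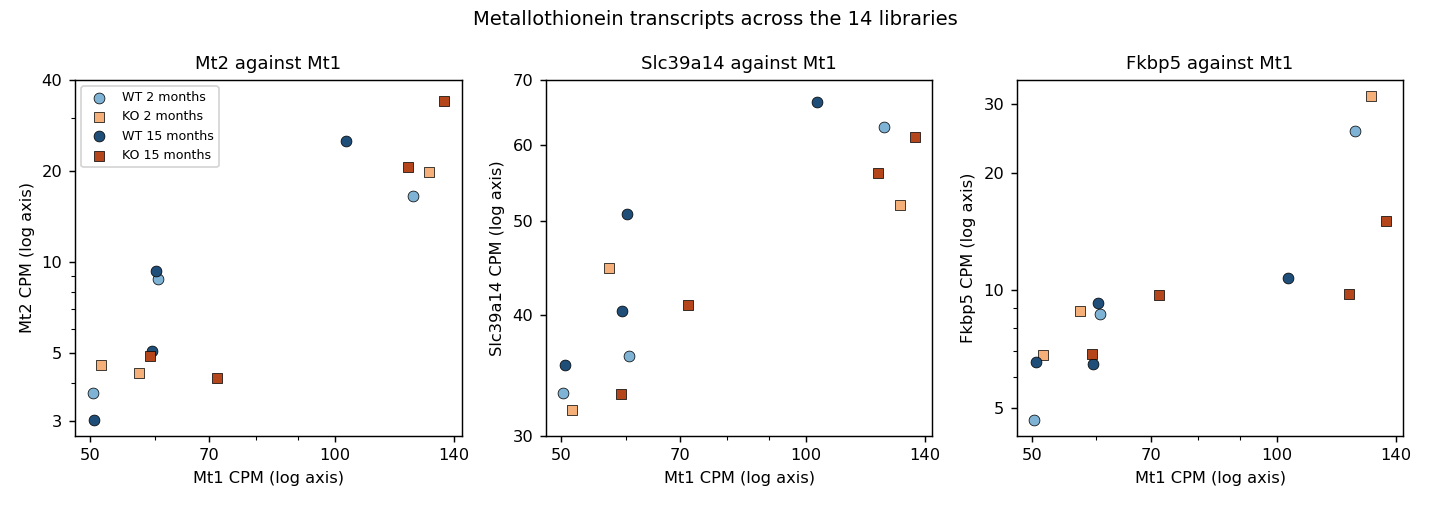
Level in CPM of Mt2, Slc39a14 and Fkbp5 against Mt1 in each of the 14 libraries (log axes), coloured by genotype and age. The 5 libraries with Mt1 above 100 CPM, which come from all 4 groups, also hold the 5 highest values of each of the other genes.

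The genes whose log2 CPM was most like each member over the 14 libraries were taken from 11683 genes, 3 for each, and r is given as a description, since the values share library, depth and length slope. Mt1 was most like Fgfr3 (0.929), Mt2 (0.915) and Mcf2l (0.888), and Mt2 most like Mt1 (0.915), Slc39a14 (0.87) and Aifm2 (0.851). Sod3 was most like C3 (0.96), Vsir (0.956) and Fgf2 (0.953), that is a complement protein, an immune checkpoint receptor and a growth factor that binds heparan sulfate. Sod1 was most like Grcc10 (0.913), Them6 (0.911) and Pla2g16 (0.908), and Msrb2 most like Lamtor4 (0.983), Pdrg1 (0.982) and Mrps28 (0.979). Sod2 was most like Vac14 (0.888), Palld (0.865) and Dlst (0.86), of which Dlst is an enzyme of the citric acid cycle, and Msra most like Mpp5 (0.814), Aasdh (0.813) and Max (0.811). Among the members, Sod1 and Msrb2 ran together (r = 0.814) and Sod3 ran against Msrb2 (r = −0.854), while the dismutases did not run together, with r from −0.65 for Sod1 and Sod3 to 0.26 for Sod2 and Sod3. C3, the gene most like Sod3, was at 131, 58.03 and 19.9 CPM in wild-type hearts and 49.2, 40.3 and 50.8 in knockout at 2 months. In hearts aged 15 months C3 measured 137, 65.2, 131 and 186 CPM in wild-type hearts and 57.2, 207, 259 and 154 in knockout, with its highest value in the same library as Sod3.

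Related genes in 7 lists were read beside the members, none of them independent of earlier results of these data. Between genotypes no gene of any list passed at either age, beside the 0.00644% of all genes above, so genes with the smallest p are given as values. Of 108 list genes tested, 5 were at an unadjusted edgeR p below 0.05 at each age, and DESeq2 called 0 of them. All values of list genes that follow are log2 fold changes. In the list of superoxide sources, catalase and the Sod1 chaperone (16 of 17 genes tested) the lowest p at 15 months was that of Duox1, 1.46 (SE 0.61). Ccs, which delivers copper to Sod1, gave 0.03 (SE 0.17) and −0.32 (SE 0.15) at the 2 ages, and catalase, Cat, which removes the peroxide that dismutases form, 0.06 (SE 0.28) and 0.06 (SE 0.24). In the list of zinc, copper and manganese handling (28 of 32 tested) the lowest p at 2 and 15 months were those of the zinc transporters Slc39a13, 0.33 (SE 0.14), and Slc39a7, −0.34 (SE 0.18). In the list of methionine oxidation and repair (10 of 10 tested) these were the thioredoxin inhibitor Txnip, 0.95 (SE 0.54), and the thioredoxin reductase Txnrd1, −0.33 (SE 0.13). At 15 months 8 of these 10 genes lay below 0, with a median of −0.17 beside 0.01 over all genes. At 2 months 5 of the 10 lay above 0, with a median of 0.03.

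Among regulators, the glucocorticoid list (16 of 16 tested) had its lowest p at Cebpd at 2 months, −0.80 (SE 0.35), and Pdk4 at 15 months, 1.16 (SE 0.47). Of its 16 genes, 8 lay above 0 at 2 months (median 0.00485) and 14 at 15 months (median 0.24). Over all genes 49.7% and 51.7% lay above 0 at the 2 ages, with medians of −0.00148 and 0.00829. In the NF-kB and acute phase list (16 of 18 tested) Socs3 gave −1.63 (SE 0.57) at 2 months and Rela 0.39 (SE 0.22) at 15 months. Of these 16 genes, 3 lay above 0 at 2 months (median −0.15) and 14 at 15 months (median 0.21). In the list of factors known for the members (11 of 11 tested) Foxo3 gave 0.26 (SE 0.20) at 2 months and Nfe2l2, which encodes Nrf2, 0.48 (SE 0.23) at 15 months. Mtf1 gave 0.14 (SE 0.15) and −0.09 (SE 0.13). In the clock list (17 of 17 tested) Per2 gave −0.48 (SE 0.42) at 2 months and Hlf 0.40 (SE 0.17) at 15 months. Averaged over both ages the lowest p in the 7 lists, in the same order, were those of Duox1, 1.01 (SE 0.47), Slc39a8, −1.01 (SE 0.41), Txnip, 0.85 (SE 0.36), Angptl4, 1.33 (SE 0.50), Hp, −1.89 (SE 0.71), Nfe2l2, 0.31 (SE 0.18), and Cry1, 0.15 (SE 0.10), and none passed. Several of these values rested on wild-type replicate 1 at 2 months. Without it Cebpd at 2 months gave −0.29, and, averaged over both ages, Hp, the acute phase gene haptoglobin, and Slc39a8 gave −0.32 and −0.37. For the difference between the ages the lowest p were those of Duox2, 2.05 (SE 1.26), Slc39a7, −0.65 (SE 0.27), Txnrd2, −0.26 (SE 0.17), Cebpd, 1.0 (SE 0.47), Socs3, 2.10 (SE 0.74), Sirt3, −0.35 (SE 0.26), and Hlf, 0.43 (SE 0.26), and none passed. Without the same library Duox2 gave 0.23, Cebpd 0.50, Sirt3 −0.19 and Hlf 0.29.

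With age, 6 of the 108 list genes tested passed in knockout hearts, where 2.25% of all genes did. In wild type 1 of 108 passed, where 1.04% of all genes did. DESeq2 called 16 list genes in knockout and 15 in wild type, among 1600 and 1116 genes in all. The clearest in edgeR was Msrb1, the selenoprotein reductase related to Msrb2, which fell in knockout hearts. It was at 135, 119 and 119.6 CPM at 2 months and 74.4, 57.8, 39.97 and 51.99 at 15 months in knockout. In wild type it was at 84.6, 128 and 114 CPM at 2 months and 55.99, 81.2, 63.3 and 59.8 at 15 months. Every 15-month library lay below every 2-month library in both genotypes. The log2 fold change was −1.15 (SE 0.20) in knockout (edgeR adjusted p = 0.0113) and −0.74 (SE 0.20) in wild type (adjusted p = 0.0786). The knockout call ended without knockout replicate 1 at 2 months (adjusted p = 0.0688) and stood without each of the other 6 libraries. It also stood with the length slope as a covariate, at −0.68 (adjusted p = 0.0406). The call was lost with a replicate block (edgeR adjusted p = 0.0532) and without both replicate 3 libraries at 2 months (adjusted p = 0.0596), and it stood in the other 9 of 11 settings that do not leave out a single library. Msrb3, the third gene of the family, gave 0.24 (SE 0.12) in knockout and 0.25 (SE 0.12) in wild type and did not pass.

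In knockout hearts Txn1, the thioredoxin that regenerates the reductases, also fell (−0.92, SE 0.22, edgeR adjusted p = 0.0434), as did Atox1, the copper chaperone (−1.47, SE 0.32, adjusted p = 0.0347), while Aox1, an aldehyde oxidase, rose (1.05, SE 0.24, adjusted p = 0.0404). With the length slope as a covariate these gave −0.38, −0.64 and 0.61 and none passed. In the clock list Bhlhe41 rose in both genotypes, 1.14 (SE 0.23) in knockout (edgeR adjusted p = 0.0264) and 1.09 (SE 0.23) in wild type (adjusted p = 0.0374), and Hlf rose in knockout, 0.78, SE 0.19 (adjusted p = 0.0453). Of these 5 genes in knockout, Bhlhe41 kept its call in 2 of the 7 fits without 1 library, without knockout replicates 1 and 3 at 15 months, and each of the others in 1, without knockout replicate 1 at 15 months. In wild type Bhlhe41 kept its call in 2 of 7, without replicate 3 at 2 months and replicate 2 at 15 months. In the lists in which no gene passed, the lowest p in knockout was that of Nr3c1, the glucocorticoid receptor, in 2 lists (0.51, SE 0.15), and of Osmr (1.03, SE 0.30). In wild type the lowest p were those of Aox1, 0.83 (SE 0.24), Atox1, −1.28 (SE 0.32), Ddit4, −1.46 (SE 0.34), Nfkb2, 0.45 (SE 0.22), and Foxo3, 0.74 (SE 0.19), and none of these passed.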

How the data were processed

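Total RNA of whole hearts was sequenced from a stranded kit with removal of ribosomal RNA, per the labels' protocols. The authors deposited 1 table of raw counts per gene for 14 libraries, and every column matched a labelled sample (0 columns without one). Per the submitters' processing notes, cutadapt 1.16, STAR 2.7.3a, featureCounts 1.6.3, DESeq2 1.26.0 and GRCm38 were used. The annotation release of the authors' counting, with its strand setting and handling of multiply mapped reads, is not given in the sources used here. Of 55487 identifiers, 55227 were found in GENCODE M21, from which symbols and positions were taken.

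The counts were tested in R 4.3.3 with the quasi-likelihood test of edgeR 4.0.16, with TMM scaling and 1 fit over the 4 groups, on 15528 genes that passed filterByExpr (minimum count 10, total 15). P-values were adjusted over all of these by Benjamini-Hochberg at 0.05. Standard errors were derived from the F statistic, as the absolute log2 change over its root. Alternatives used DESeq2 1.42.0 and voom of limma 3.58.1, RLE size factors, other filters, a replicate block and fits without single libraries, with some added after the data were seen. Log2 CPM for correlations and permutation tests used a prior count of 2. Correlation p-values came from 100000 permutations. The scripts were tested on simulated data.

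No pair of libraries agreed within sampling noise (chi-square per degree of freedom at least 18.2 over 91 pairs). Total counts per library bear on the counting error only, and intervals reflect the spread between libraries, which may be technical. The members and the gene lists were chosen with earlier results of these data known. All 7 members are named in every contrast. From each list and contrast up to 2 genes past the threshold, by smallest p, or else the 1 gene of smallest p, are named, as are the 3 genes most like each member among genes with a mean CPM of at least 1, without predicted models, small RNAs and pseudogenes. Of 121 list entries, 7 did not pass the filter on low counts. For 1 gene named by this rule the value is not reported here, and Ccs, Cat, Mtf1 and Msrb3 were added for their roles. Marker genes are given as sums. Promoter windows came from a RefSeq table, in which 5 of 7 members were found.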

Additional observations from a re-analysis of the deposited data

Results flagged for a closer look

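In knockout replicate 2 at 15 months, 3 genes lay far above the other 3 libraries of their group, with a gap to the nearest library that exceeds Dixon's 95% limit for 4 samples. Sqstm1 was at 37.0 CPM there, with the nearest library at 17.6 CPM and a gap of 0.867 of the range, so this heart held the highest residual level of the targeted gene. The clock genes Bhlhe41 and Hlf were at 54.9 and 57.6 CPM, with the nearest libraries at 40.9 and 47.2 CPM. In all, 32 gene groups were tested, and chance gives about 1 such library in 20 groups. None of the 7 antioxidant genes had such a library at 15 months, and groups of 3 were not tested.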

How the results depend on the processing

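Over the 7 members and 6 contrasts, 42 log2 fold changes were recomputed under 826 alternatives, of which 49 turned the direction and 8 gave a call, and 22 of the 42 kept their direction throughout. RLE size factors, no filter on low counts or a mean CPM of at least 1, DESeq2, limma voom, only the groups compared, mitochondrially encoded genes left out and each library left out were planned. The length slope as a covariate, both replicate 3 libraries at 2 months left out, both 15-month libraries of lowest length slope left out, the principal transcript as length and the settings for likeness were chosen after seeing the data.

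The number of members called moved only with age, from 0 to 1 in wild type without both 15-month libraries of lowest length slope, and in knockout to 1 with DESeq2, to 3 without both of those libraries, and to 0 to 3 over the fits without 1 library. The cause was not tested.

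Directions turned mostly at values near 0. For knockout against wild type at 2 months Mt2 gave 0.0442 with the length slope as covariate and Mt1 −0.019 without both replicate 3 libraries. At 15 months Sod1 gave 0.0226 and Sod2 −0.0202 with the length slope, and Sod2 −0.0244 without both lowest-slope libraries. With age in wild type Msra gave 8.01e-04 with no filter and Mt2 −0.15 with limma voom. There the length slope gave −0.0291 for Sod3, −0.94 for Mt2 and 0.0405 for Msra, and leaving out both replicate 3 libraries 0.32 for Mt1 and 0.0548 for Msra. With age in knockout Sod2 gave 0.00746 with no filter and 5.04e-04 without both lowest-slope libraries, and the length slope gave −0.20 for Mt1 and −0.83 for Mt2.

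Leaving out 1 library also turned directions, with these ranges. At 2 months Sod3 spanned −0.49 to 0.40, Mt1 −0.53 to 0.54, Mt2 −1.13 to 0.63 and Msrb2 −0.16 to 0.0523, and at 15 months Sod1 −0.0862 to 0.0476, Sod2 −0.0381 to 0.0564 and Mt2 −0.11 to 1.46. Averaged over the ages Sod3 spanned −0.0169 to 0.43, Msra −0.0499 to 0.012, Mt1 −0.00792 to 0.53 and Mt2 −0.27 to 0.72. With age Mt1 spanned −0.47 to 0.32, Mt2 −0.75 to 0.78 and Msra −0.0636 to 0.0592 in wild type and Sod2 −0.0742 to 0.0822 in knockout, and in the difference of the genotype effects Mt1 spanned −0.0279 to 1.04 and Mt2 −0.0998 to 1.72.

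Counts over all genes moved more. With age in knockout, against 349 genes, DESeq2 called 1600, only the groups compared 134, the length slope 86, leaving out both replicate 3 libraries 69, both lowest-slope libraries 4232 and 1 library 49 to 3523. With age in wild type, against 161 genes, these were 1116, 86, 123, 43, 2627 and 38 to 511. Between genotypes, against 1 gene, DESeq2 called 7 at 2 months, 7 at 15 months and 5 averaged, and other settings at most 5.

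The labels number the libraries of each group, and same-numbered libraries of the genotypes correlated at −0.0456, 0.00407 and 0.308 at 2 months and between −0.441 and 0.231 at 15 months, so the numbers were not taken as pairs. A replicate block called 0 members in every contrast, and 55 genes with age in wild type and 70 in knockout. Msrb1 in knockout was then at −1.13 (edgeR adjusted p = 0.0532). Not every library correlated best with its own number.

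The r between Mt1 and Mt2 was 0.918 with RLE size factors. For the 21 likeness values r was 0.814 or higher with RLE size factors and 0.687 or higher on residuals from the group means. Depth limits Mt2 most, with 62 reads in its shallowest library, and the spread between 3 or 4 libraries sets the width of the intervals.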
